A study of Mus musculus with 12 samples.

Results

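RNA-seq measured the early response of HMGN1-OE myeloid progenitors to the loss of ER-HoxB8 activity, in 2 libraries taken before withdrawal of E2 (0 h) and 2 taken 36 h after it. HMGN1-OE cells came from mice on a C57BL/6 background that carry a human HMGN1 transgene, and the wild-type cells came from littermates without it. The promoter that drives the transgene is not given in the sources used here. In both genotypes bone marrow was enriched for CD117 (Kit), transduced with a retrovirus that expresses ER-HoxB8, and grown in interleukin 3 with E2. The virus, the cytokine and the culture were thus shared by the groups compared, and the labelled differences are genotype and time. The study describes them as biological duplicates of each genotype. Nothing in the labels says whether the 2 libraries of a group came from separate mice or cultures, so p-values measure only the spread between these samples. The comparison took all genes at 1 FPKM or more in at least 2 of the 12 libraries of the series, 11516 of 23309 listed genes, and set 2 libraries against 2. All 12 libraries entered the limma fit, so the spread behind each SE and p comes from all of them. The wild-type libraries at 0 and 36 h (2 each) and the HMGN1-OE libraries at 96 h (2) are also used below to place that response, and ages of the mice are not given in the sources used here.

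HoxB8 is a homeobox factor that holds myeloid progenitors in a self-renewing state. When fused to the estrogen receptor it acts only while E2 is present, so removal of E2 lets the whole culture leave that state together. Granulocytes then make their granules in a fixed order. Promyelocytes fill primary (azurophil) granules with myeloperoxidase and serine proteases, and myelocytes and later cells fill secondary and tertiary granules with lactoferrin, cathelicidin and collagenases. HMGN1 is a nucleosome-binding protein that loosens compact chromatin. The comparison therefore asks which parts of this programme HMGN1-OE cells had started by 36 h, the time at which wild-type cells no longer return to the progenitor state when E2 is given back.

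The 4 HMGN1-OE libraries, named here by the digit that ends their columns, had median levels between 3.96 and 4.48 on the log2(FPKM + 1) scale. Library 0 at 0 h lay 0.51 above library 1 at 0 h at the median gene, while the libraries at 36 h differed by 0.09. In the genotype check, mouse Hmgn1 read 201 and 97.6 FPKM at 0 h and 134 and 188 FPKM at 36 h (libraries 0 and 1) in HMGN1-OE cells. It read 85.7 and 141 FPKM at 0 h and 141 and 183 FPKM at 36 h in wild-type cells. These ranges overlap, and since the transgene is human, its reads were not analysed here and mouse Hmgn1 does not check the label. The source label of the samples, myeloid cells, was met by progenitor markers. The summed level of 8 of them was 8228 and 5700 FPKM (libraries 0 and 1) at 0 h and 16002 and 12726 FPKM at 36 h. The sum was chiefly Ctsg at 0 h and Ctsg, Mpo, Prtn3 and Elane at 36 h. These 4 are also primary granule genes, so the higher sum at 36 h repeats their rise described below. Of the other markers, Cd34 was lower at 36 h and Kit higher, with values given below. Defining markers of B cells (Pax5), T cells (Cd3e, Cd3d) and NK cells (Ncr1, Klrb1c) were under 1 FPKM in all 4 libraries. Of the other types some markers were under 1 FPKM and others were not. Those under it were Csf1r of monocytes, Il5ra and Ccr3 of eosinophils, Fcer1a and Mcpt4 of mast cells, and Klf1 of erythroid cells. Basophil and mast cell markers summed to 987 and 601 FPKM at 0 h and 1144 and 1156 FPKM at 36 h, chiefly Cpa3, Mcpt8 and Prss34. Erythroid markers summed to 40.4 and 6.82 FPKM and then 2.82 and 16.5 FPKM, chiefly Hbb-b1, and those of megakaryocytes, chiefly Pf4 and Itga2b, to 36.7 and 11.2 FPKM and then 21.4 and 38 FPKM. Lck of T cells read 5.47 and 1.64 FPKM and then 4.36 and 4.97 FPKM. All 4 wild-type libraries at 0 and 36 h correlated better, over the 11516 genes, with a library of the other time than with their own partner. Library 0 at 0 h and library 1 at 36 h had a Pearson r of 0.980, and library 1 at 0 h and library 0 at 36 h one of 0.970. The r between partners was 0.968 at 0 h and 0.951 at 36 h (across genes, which are not independent replicates). The wild-type counts are therefore also given without each of these 4 libraries.

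From 0 to 36 h, 207 of 11516 genes (1.8%) were called in HMGN1-OE cells at a limma adjusted p under 0.05, of which 78 rose (0.677% of tested genes) and 129 fell (1.12%). A further measure that uses no model is whether both libraries at 36 h lay on the same side of both at 0 h. Of all tested genes 1650 lay wholly above (14.3%) and 1090 wholly below (9.47%), and of the 207 called genes 63 lay above, 117 below and the remaining 27 overlapped. Genes for small RNAs (under 200 bases, or with a microRNA, snoRNA, scaRNA or snRNA symbol) made up 34 of the 207 calls and 22 of the 27 overlaps. They are described at the end, and the account below keeps to the other 173 genes, 60 higher and 113 lower at 36 h. On the log2 scale, the difference of 96.3% of tested genes lay within 1 either way, and the median change over all tested genes was 0.06. The smallest p that 2 libraries against 2 allow in an exact two-sided permutation test is 0.333, and each call therefore rests on the spread that limma shares between genes. A fit of the 4 HMGN1-OE libraries alone called 492 genes, 243 higher and 249 lower, and these included all 207. After each library's FPKM was rescaled by the median ratio of its genes, 37 genes were called (18 higher, 19 lower), of which 19 were among the 207. Genes at an unadjusted limma p under 0.05 numbered 1794 after the rescaling and 578 before it. The prior degrees of freedom of limma went from infinite to 2.38, so each gene's own spread then entered its p. A call lost after this rescaling therefore need not mean a smaller change.

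**Figure D1:**
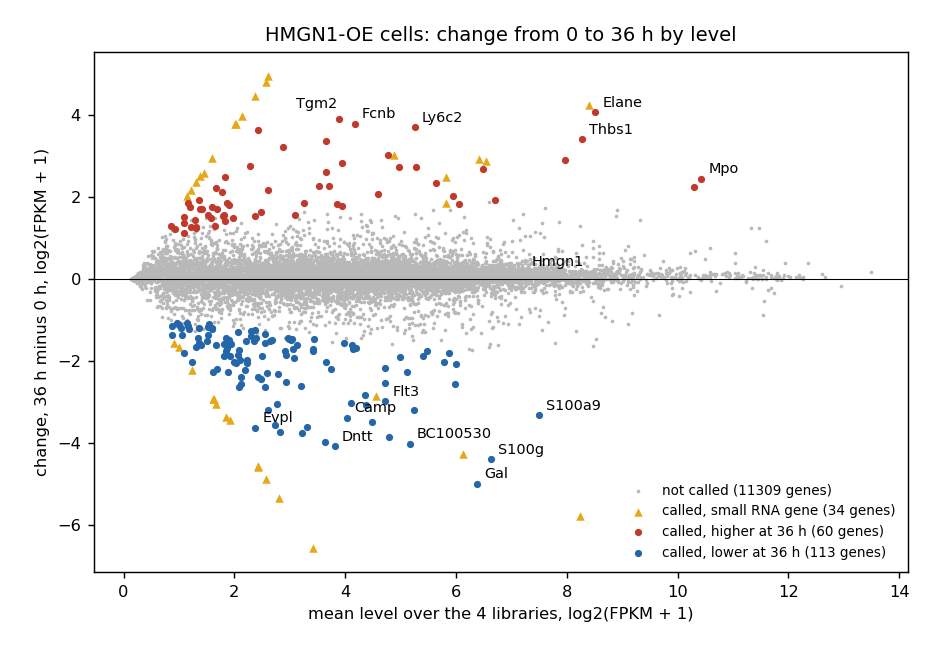
Each point is a gene, with its mean level over the 4 HMGN1-OE libraries on the x axis (log2(FPKM + 1)) and its change from 0 to 36 h on the y axis (log2 scale). Red and blue points are the 60 and 113 called genes that rose and fell, yellow triangles are the 34 called small RNA genes, and the largest named changes are Elane upward and Gal downward.

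The largest rise belonged to a primary granule gene. Of 13 tested primary granule genes, 4 rose (0.677% of all genes did so), none fell, and in 10 both libraries at 36 h lay above both at 0 h (14.3% of all genes did so). Elane, which encodes neutrophil elastase, read 106 and 74 FPKM at 0 h and 1772 and 1260.3 FPKM at 36 h. Both late libraries stood far above both early ones, 16.9-fold in the mean, with a log2 change of 4.06 (SE 0.60, limma adjusted p = 4.19e-09). Fcnb, the secreted lectin ficolin B of the complement lectin pathway, read 4.98 and 2.94 FPKM and then 68.6 and 63.1 FPKM, a log2 change of 3.78 (SE 0.55, limma adjusted p = 1.29e-09). Mpo, the myeloperoxidase that makes hypochlorous acid, was already abundant at 539.9 and 642 FPKM and reached 4147 and 2451 FPKM (log2 change 2.43, SE 0.62, limma adjusted p = 0.00664). Prtn3, proteinase 3, moved from 708 and 467 FPKM to 3062 and 2412 FPKM (log2 change 2.24, SE 0.62, limma adjusted p = 0.02). Ctsg, cathepsin G of the same granule, was the most abundant of these genes at 5683 and 3711 FPKM at 0 h and 6209 and 5769.8 FPKM at 36 h, with a log2 change of 0.38 that did not pass. Among the other members, Nkg7 changed by 1.43, Srgn, the proteoglycan core on which granule proteases are packed, by 0.91, Prss57 by 0.81 and Serpinb1a, an inhibitor of these proteases, by 0.71 on the log2 scale, none of them past the threshold. The median change of the list was 0.81, against 0.06 over all tested genes, and its 14 listed members summed to 16090.3 and 11064 FPKM at 0 h and to 26933 and 22909 FPKM at 36 h. Elane and Fcnb were called whichever of the 4 libraries was left out. Mpo (2.06 to 2.81) and Prtn3 (1.94 to 2.54) kept their direction but lost the call without any 1 of them. After the median-ratio rescaling Fcnb was the one called gene of the list.

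The stretches just upstream of Elane, Prtn3, Mpo and Ly6c2 are shown because these rising genes share a short word there. They are the 250 bases before the RefSeq start in GRCm38.p6, given 5′ to 3′ on the strand of the gene, and capitals mark GAGGAAGT, a binding word of the myeloid factor PU.1. The expression files use mm9, and no coordinate was carried between the builds.
Elane (chr10:79886062-79886311, plus strand): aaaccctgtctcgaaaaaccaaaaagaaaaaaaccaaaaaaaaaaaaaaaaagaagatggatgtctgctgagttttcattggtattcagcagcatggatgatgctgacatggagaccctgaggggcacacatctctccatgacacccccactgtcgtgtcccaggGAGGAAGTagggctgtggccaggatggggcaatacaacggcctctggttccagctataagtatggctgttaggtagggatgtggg
Prtn3 (chr10:79879417-79879666, plus strand): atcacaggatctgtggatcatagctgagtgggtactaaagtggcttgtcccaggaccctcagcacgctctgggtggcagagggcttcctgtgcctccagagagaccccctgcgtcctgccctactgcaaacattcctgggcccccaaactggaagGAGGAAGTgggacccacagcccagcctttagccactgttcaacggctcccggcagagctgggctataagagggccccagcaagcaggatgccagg
Mpo (chr11:87793534-87793783, plus strand): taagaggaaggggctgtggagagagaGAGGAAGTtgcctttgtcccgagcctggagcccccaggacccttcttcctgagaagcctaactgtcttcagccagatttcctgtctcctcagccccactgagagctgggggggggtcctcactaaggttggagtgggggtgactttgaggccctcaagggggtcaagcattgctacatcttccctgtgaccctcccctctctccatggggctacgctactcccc
Ly6c2 (chr15:75111972-75112221, minus strand, the first of its 2 listed starts): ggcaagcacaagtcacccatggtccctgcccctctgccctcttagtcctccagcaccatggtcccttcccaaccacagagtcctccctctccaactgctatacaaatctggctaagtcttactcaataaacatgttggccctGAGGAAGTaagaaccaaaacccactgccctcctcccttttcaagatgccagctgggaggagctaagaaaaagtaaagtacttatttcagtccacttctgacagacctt
Elane and Prtn3 lie side by side on chromosome 10, and the word begins 85 bases before the start of Elane, 95 before Prtn3, 224 before Mpo and 108 before Ly6c2. Of the called genes, 44 rising and 79 falling ones had a window in RefSeq, and small RNA genes were not set apart in this count. On either strand, GAGGAAGT stood in 6 of the 44 rising genes (13.6%), namely Elane, Prtn3, Mpo, Ly6c1, Ly6c2 and Gm13546, and in 3 of the 79 falling genes (3.8%), against 2.79% of all 27025 genes with windows (2.44% of 32851 windows). Ly6c1 and Ly6c2 are near-identical neighbours, so these 6 are not independent. Of the other words searched on both strands, TGACTCA (AP-1) stood in 11.4% of the rising and 2.53% of the falling genes and 5.16% of all genes. TTGCGCAA (C/EBP, 0.185% of all genes) stood in 1 rising gene, Clec12a, and TCACCCCA (SREBP, 1.54%) in 1 rising and 3 falling genes. TGATTGAT (HOX with a TALE cofactor, 0.77%) stood in 1 rising gene, Ms4a2, and TGATTTAT (the same factors, 0.995%) in 2 falling genes, Gimap4 and Nkx6-2. These are matches of letters, and binding was not measured here.

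Of the monocyte and macrophage genes 2 rose, the near-identical neighbours Ly6c1 and Ly6c2. Ly6c2, a surface antigen of immature monocytes and granulocytes, read 10.9 and 8.43 FPKM at 0 h and 158 and 117 FPKM at 36 h, with a log2 change of 3.69 (SE 0.59, limma adjusted p = 9.75e-08). Its neighbour Ly6c1 went from 3.22 and 2.67 FPKM to 45.9 and 33.5 FPKM (log2 change 3.36), and reads may have been shared between the 2 genes. They were the only 2 of 24 tested genes of the list to be called (0.677% of all genes rose), and the median change of that list was -0.01. In 8 of the 24 both late libraries lay above both early ones and in 5 below (14.3% and 9.47% of all genes). Neither was called after the median-ratio rescaling (limma adjusted p = 0.153 for Ly6c2 and 0.174 for Ly6c1). Csf1r, the M-CSF receptor that defines monocytes, stayed under 1 FPKM. Ccr2, a chemokine receptor, read 12 and 6.61 FPKM and then 7.04 and 9.9 FPKM. Emr1 (F4/80), a macrophage antigen, read 119 and 37.7 FPKM at 0 h and 17.6 and 40.9 FPKM at 36 h, with libraries that overlapped. Tgfbi, an extracellular matrix protein of monocytes, changed by 1.45, and F13a1, coagulation factor XIII, by -1.09, neither past the threshold. The monocyte markers summed to 40.3 and 25.4 FPKM at 0 h and 183 and 145 FPKM at 36 h, of which Ly6c2 gave 158 and 117 FPKM at 36 h.

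The other large rises joined enzymes, matrix proteins and receptors. Tgm2, the transglutaminase that cross-links proteins, stood at 2.77 and 2.94 FPKM at 0 h and 68.6 and 46.2 FPKM at 36 h, 20.1-fold apart in the mean (log2 change 3.89, SE 0.51, limma adjusted p = 8.55e-12). B4galt6, a lactosylceramide synthase, was under 1 FPKM in both early libraries (0.624 and 0.458 FPKM) and at 22 and 14.6 FPKM in the late ones (log2 change 3.62, limma adjusted p = 1.41e-12). Thbs1, the secreted matrix protein thrombospondin 1, was the most abundant of these, at 133 and 66.3 FPKM and then 1045 and 954 FPKM (log2 change 3.40, limma adjusted p = 3.37e-06). In these 3 genes the late libraries lay clear of the early ones, and library 1 at 36 h was the lower of the 2. Hebp1, a heme-binding protein, rose from 0.974 and 1.99 FPKM to 34.5 and 13.3 FPKM. Igsf6, an immunoglobulin superfamily receptor of myeloid cells, rose from 10.5 and 7.1 FPKM to 89.4 and 66.5 FPKM. Hsd11b1, the enzyme that regenerates active glucocorticoid, rose from 5.5 and 4.21 FPKM to 42.3 and 37.9 FPKM. Tfec, a factor of the MiT family, rose from 10.1 and 12.4 FPKM to 96.5 and 65.4 FPKM, and Clec12a, an inhibitory lectin receptor of granulocytes and monocytes, from 19.4 and 10.4 FPKM to 102 and 95.3 FPKM. Their log2 changes ran from 2.71 to 3.22, with limma adjusted p from 2.17e-11 to 1.55e-04. Of the 60 rising genes 27 were under 10 FPKM in all 4 libraries, and 11 were over 100 FPKM in both libraries at 36 h. Gm9846, a symbol with no match in the annotation, was called at 578 and 13.4 FPKM and then 639.8 and 727 FPKM. Of its early libraries 1 already stood near the late ones, so that without library 1 at 0 h its change was 0.24. Tfec without library 0 at 36 h (2.45), and Clec12a without that library (2.66) or library 1 at 0 h (2.29), also lost the call. After the median-ratio rescaling Clec12a alone of these 9 genes was called. The other limma adjusted p were 0.0513 for B4galt6, 0.0547 for Thbs1, 0.065 for Hsd11b1, 0.11 for Tgm2, 0.119 for Igsf6, 0.148 for Tfec, 0.44 for Hebp1 and 0.527 for Gm9846, with the directions kept.

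Among basophil, mast cell and eosinophil genes, the called ones of basophils and mast cells rose and those of eosinophil granules fell. Of 22 tested genes of these lineages, 3 rose and 2 fell (0.677% and 1.12% of all genes), and the median change was 0.31. That median was 0.15 without library 1 at 0 h, 0.17 without library 1 at 36 h and 0.47 without library 0 at 0 h. In 10 both late libraries lay above both early ones and in 5 below (14.3% and 9.47% of all genes). Hdc, histidine decarboxylase, which makes histamine, read 27.2 and 16.5 FPKM at 0 h and 105 and 115 FPKM at 36 h (log2 change 2.32, SE 0.55, limma adjusted p = 0.00212). Ms4a2, the beta chain of the IgE receptor, read 4.38 and 3.69 FPKM and then 15.6 and 18.9 FPKM (log2 change 1.86, limma adjusted p = 0.00477). Cd200r3, an activating receptor of basophils and mast cells, read 0.668 and 0.348 FPKM and then 2.56 and 3.57 FPKM (limma adjusted p = 0.0158). Both late libraries lay above both early ones in each of the 3. The abundant proteases of these cells did not pass, with Cpa3, carboxypeptidase A3, at 516 and 345 FPKM and then 564 and 648 FPKM, and Mcpt8 at 210.2 and 174 FPKM and then 411 and 227 FPKM. The eosinophil markers, of which Il5ra and Ccr3 were under 1 FPKM, summed to 24.8 and 16.7 FPKM at 0 h and 6.46 and 2.95 FPKM at 36 h. Prg2, major basic protein, read 19.8 and 12.1 FPKM at 0 h and 5.3 and 1.99 FPKM at 36 h (log2 change -1.93, SE 0.54, limma adjusted p = 0.0221). Epx, eosinophil peroxidase, read 4.72 and 4.33 FPKM and then 0.902 and 0.72 FPKM (log2 change -1.61, limma adjusted p = 0.0218). Il1rl1, the receptor for interleukin 33 that mast cells and basophils carry, went from 1.26 and 0.544 FPKM to 10.5 and 12.8 FPKM (log2 change 2.75, SE 0.41, limma adjusted p = 7.42e-09). Leaving out any 1 library left none of the 5 called, except that Hdc was called without library 0 at 0 h. Prg2 then ran from -2.47 to -1.39 and Hdc from 1.98 to 2.67. None of the 5, nor Il1rl1, was called after the median-ratio rescaling (limma adjusted p from 0.13 to 0.57).

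Against the rise of the primary granule, genes listed with the secondary and tertiary granules fell between 0 and 36 h. Of 26 tested genes 10 fell (1.12% of all genes did so), 3 of them near-identical stefins described next, and none rose. S100a9, of the cytosol, and these 3 stefins belong to the list, so it is not one of granule contents alone. In 17 both late libraries lay below both early ones (9.47% of all genes did so). S100a9, a subunit of the calcium-binding protein calprotectin that fills the neutrophil cytosol, read 744 and 437 FPKM at 0 h and 158 and 19.4 FPKM at 36 h (log2 change -3.33, SE 0.61, limma adjusted p = 8.81e-06). Camp, the cathelicidin precursor, read 75.1 and 35.9 FPKM and then 9.2 and 1.51 FPKM (log2 change -3.39, limma adjusted p = 9.27e-07). Ltf, lactoferrin, read 22 and 15.8 FPKM and then 3.13 and 0.361 FPKM (log2 change -3.05, limma adjusted p = 2.09e-06). In each of these both late libraries lay below both early ones, and library 1 at 36 h was several times below library 0 at 36 h. Ngp, neutrophilic granule protein, fell from 149.9 and 86.4 FPKM to 26.5 and 4.62 FPKM, Mmp8, neutrophil collagenase, from 55.6 and 63.3 FPKM to 7.09 and 5.34 FPKM, and Chi3l3, a chitinase-like protein, from 70.2 and 41.1 FPKM to 18 and 2.08 FPKM. Olfm4, the granule glycoprotein olfactomedin 4, was low at 7.24 and 5.42 FPKM and then 1.83 and 0.386 FPKM (log2 change -1.88, limma adjusted p = 0.0196), and the call was lost with any 1 of the 4 libraries left out. Library 1 was the lower at 36 h in all 10 called genes. The list was not uniform. Lcn2, lipocalin 2, read 41.6 and 32 FPKM and then 33.8 and 31.1 FPKM. S100a8, the partner of S100a9, changed by -1.63 without passing. Pglyrp1 (73.2 and 33.2 FPKM, then 179 and 188 FPKM), Hp, haptoglobin (1.53), and Anxa1, annexin A1 (1.44), pointed upward, with limma adjusted p from 0.0806 to 0.561. In the fit of the 4 HMGN1-OE libraries alone these 3 and Adam8 were called higher and 15 genes of the list lower (243 and 249 of all 11516 genes). The median change was -0.73, and it was -0.45 without library 1 at 36 h. These calls rest on library 1 at 36 h: without it, 2 of the 10 were called, Mmp8 and Stfa2, and the changes of S100a9, Camp, Ltf, Ngp and Chi3l3 were -1.85, -2.38, -2.25, -2.06 and -1.53. After the median-ratio rescaling 1 gene of the list was called lower, Stfa2, and 1 higher, Pglyrp1. The 7 listed neutrophil markers summed to 1821 and 1109 FPKM at 0 h and 549 and 195 FPKM at 36 h, and in a bulk sample fewer cells of a type and less RNA per cell cannot be told apart.

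The stefin A genes, small cysteine protease inhibitors in a cluster on mouse chromosome 16, were 5 of the 15 largest falls without overlap. BC100530 read 186 and 110.3 FPKM at 0 h and 25.1 and 2.03 FPKM at 36 h (log2 change -4.02, limma adjusted p = 4.12e-09). Stfa2l1 read 63.1 and 36.7 FPKM and then 5.01 and 0.617 FPKM, and Gm5483 138 and 78.7 FPKM and then 17.7 and 1.81 FPKM. Early and late libraries lay far apart in each. BC117090 read 43.2 and 25.5 FPKM and then 3.46 and 0.417 FPKM. Stfa2 fell from 37.6 and 29.9 FPKM to 3.34 and 0.826 FPKM, Stfa3 from 18.4 and 16.6 FPKM to 2.5 and 0.15 FPKM, and Stfa1 from 58.7 and 39.5 FPKM to 15 and 1.3 FPKM. All 7 showed the order of the granule genes, with library 1 lowest at 36 h, and without that library BC100530 changed by -2.47, Gm5483 by -2.49, Stfa3 by -2.40 and Stfa1 by -1.62, none of them then called. After the median-ratio rescaling Stfa2 was called and the other 6 were not (limma adjusted p from 0.0565 to 0.154). Because these genes are near copies, the way reads were split between them is uncertain, and their changes do not count as 7 separate results. The likeness extends upstream of the genes, which is why the windows before 4 of them are shown (RefSeq, GRCm38.p6, 250 bases before the start). Capitals mark the longest run that all 4 share, 15 bases.
Stfa1 (chr16:36276898-36277147, plus strand): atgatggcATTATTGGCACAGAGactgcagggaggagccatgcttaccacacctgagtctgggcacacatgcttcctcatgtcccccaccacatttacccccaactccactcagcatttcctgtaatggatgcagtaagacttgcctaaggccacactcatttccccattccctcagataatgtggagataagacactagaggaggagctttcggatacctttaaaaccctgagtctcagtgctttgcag
Stfa2 (chr16:36408364-36408613, minus strand): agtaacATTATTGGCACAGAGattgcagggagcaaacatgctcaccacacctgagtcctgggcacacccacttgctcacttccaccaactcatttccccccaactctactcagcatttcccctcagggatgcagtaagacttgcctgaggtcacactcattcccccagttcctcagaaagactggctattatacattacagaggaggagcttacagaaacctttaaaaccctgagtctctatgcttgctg
Stfa3 (chr16:36455393-36455642, minus strand): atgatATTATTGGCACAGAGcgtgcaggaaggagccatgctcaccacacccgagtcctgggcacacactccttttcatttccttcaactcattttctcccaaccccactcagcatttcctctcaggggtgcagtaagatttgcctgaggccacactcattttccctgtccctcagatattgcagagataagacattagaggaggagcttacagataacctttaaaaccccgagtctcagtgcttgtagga
Stfa2l1 (chr16:36156561-36156810, plus strand): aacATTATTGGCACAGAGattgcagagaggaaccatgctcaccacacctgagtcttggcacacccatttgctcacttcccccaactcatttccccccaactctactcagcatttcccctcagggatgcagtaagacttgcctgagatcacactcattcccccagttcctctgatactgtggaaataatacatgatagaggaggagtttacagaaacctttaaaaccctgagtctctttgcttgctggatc
Aligned end to end with gaps, these windows were between 80.2% (Stfa2 and Stfa3) and 89.4% identical (Stfa2 and Stfa2l1), whereas the windows of the neighbours Elane and Prtn3 were 49.8% identical. None of the 4 held GAGGAAGT or another of the words searched.

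**Figure D2:**
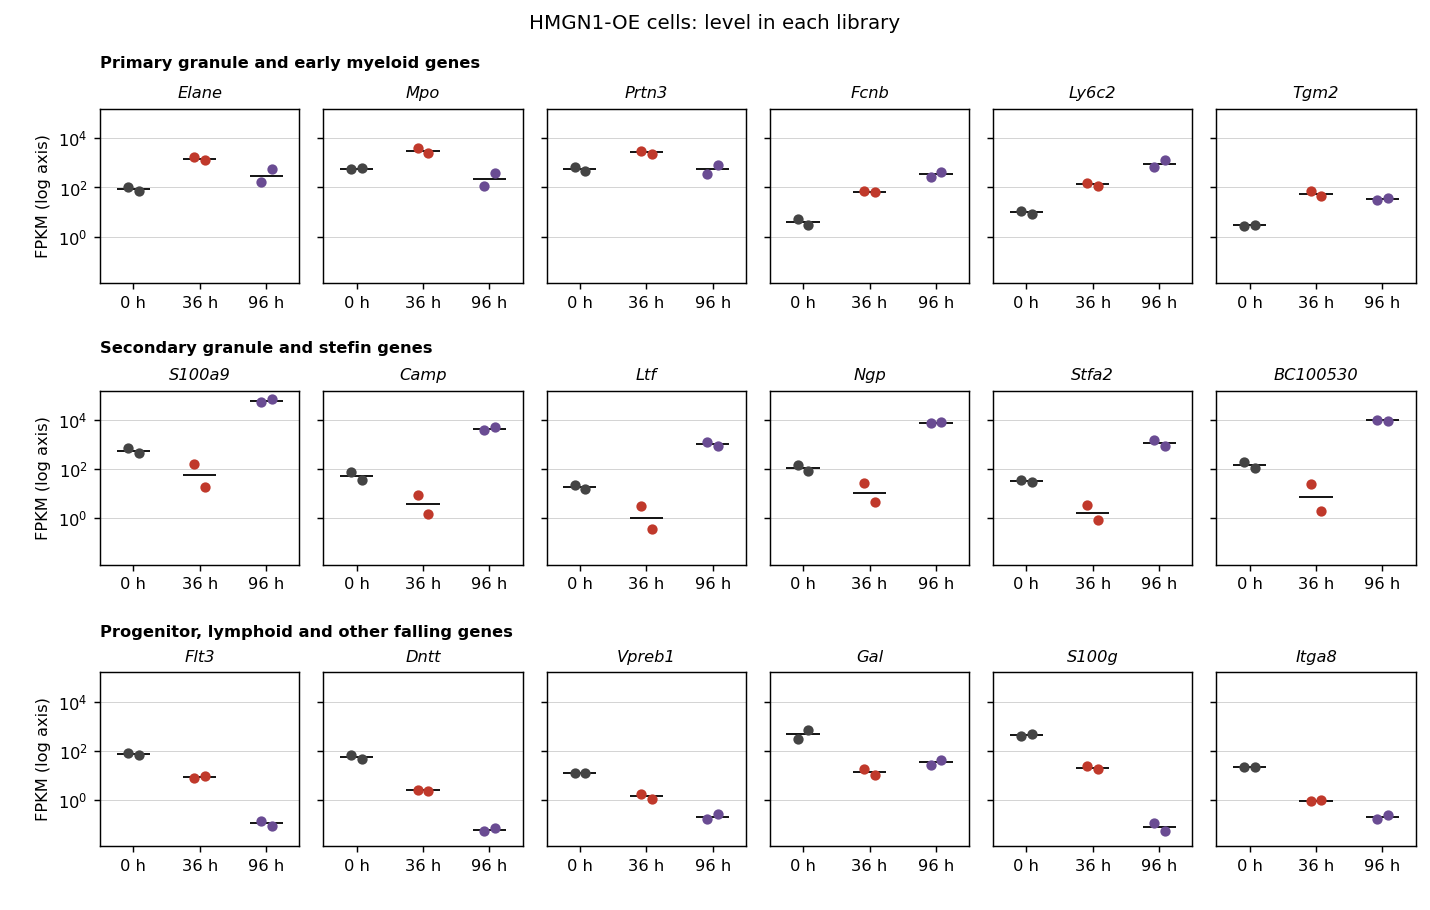
Level of 18 genes in the 6 HMGN1-OE libraries, in FPKM on a log axis, with 2 points per time (0, 36 and 96 h, left library 0 and right library 1) and a line at their geometric mean. Primary granule and early myeloid genes are higher at 36 h than at 0 h and at 96 h are lower again (Elane, Mpo, Prtn3) or higher still (Fcnb, Ly6c2). Secondary granule and stefin genes dip at 36 h with library 1 the lower and are highest at 96 h, and Flt3, Dntt, Vpreb1, S100g and Itga8 fall at each step.

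The HMGN1-OE libraries at 96 h entered the fit but not the 36 h difference, and they show what followed. Of the 113 genes that fell, 93 were wholly below their 0 h libraries at 96 h too, 85 of the 113 were under 1 FPKM in both libraries at 96 h, and 19 were wholly above 0 h. These 19 included 9 of the 10 genes of the secondary and tertiary granule list called at 36 h: Camp reached 3818 and 5112 FPKM, Ltf 1212 and 856 FPKM, Ngp 7536 and 7906 FPKM and Chi3l3 5845 and 7321 FPKM. The stefin gene BC100530, outside that list, reached 9753 and 9520.5 FPKM. Mmp8 was the called gene of that list that did not come back, at 15.3 and 12.5 FPKM. Prg2 and Epx also returned above their early level, to 186 and 472 FPKM and 14.1 and 25.3 FPKM. Of the 60 genes that rose, 41 were still wholly above 0 h at 96 h, among them Fcnb (268 and 438 FPKM) and Ly6c2 (702 and 1257 FPKM), while 9 were wholly below. Mpo was among those 9, at 114 and 406 FPKM. Elane, at 168 and 554 FPKM, was above its 0 h and below its 36 h libraries. Levels at 96 h are on a scale whose median is lower, 2.75 and 3.06 in log2(FPKM + 1) in the HMGN1-OE libraries, against 4.48 and 3.96 at 0 h. Genes in general therefore tend to lie below 0 h at 96 h. The shares of all tested genes wholly below or above 0 h at 96 h were not counted. The counts above cannot be read as particular to the genes called at 36 h. The comparisons of 96 h and of 36 h share the 0 h libraries, so these counts are a description without a test.

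Of 30 tested stem and progenitor genes 2 fell (1.12% of all genes did so) and none rose. In 16 both late libraries lay below both early ones and in 5 above (9.47% and 14.3% of all genes), with a median change of -0.42. Without library 0 at 0 h that median was -0.23, and without library 1 at 0 h it was -0.71. Flt3, the receptor tyrosine kinase of multipotent and lymphoid-primed progenitors, read 82.2 and 64.6 FPKM at 0 h and 7.53 and 9.31 FPKM at 36 h, 8.71-fold lower in the mean (log2 change -2.98, SE 0.48, limma adjusted p = 8.56e-08). It read 0.141 and 0.084 FPKM at 96 h. Crhbp, which encodes a binding protein for corticotropin-releasing hormone, read 37.6 and 18.1 FPKM and then 4.98 and 13.1 FPKM (log2 change -1.56, limma adjusted p = 0.0167). Neighbouring values that did not pass were those of Hlf, a stem cell factor, at 57.3 and 16.6 FPKM and then 7.13 and 16.1 FPKM (limma adjusted p = 0.0937), of Sox4 (-1.15) and Cd34 (695 and 467 FPKM, then 259 and 337 FPKM). Kit, the receptor by which the cells were enriched, pointed the other way at 13.4 and 12.1 FPKM and then 42.2 and 28.3 FPKM (log2 change 1.38, limma adjusted p = 0.282). Myb, a progenitor factor, read 369 and 238 FPKM and then 387 and 351 FPKM. Flt3 was called whichever library was left out but not after the median-ratio rescaling, where its change was -2.98 (limma adjusted p = 0.153), and Crhbp was not called after it (limma adjusted p = 0.165), without library 0 at 0 h (-1.06) or without library 0 at 36 h (-0.95).

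Of 10 tested lymphoid genes 3 fell (1.12% of all genes did so) and none rose, and in 6 both late libraries lay below both early ones (9.47% of all genes). All 3 called genes belong to early lymphoid progenitors. Dntt, the terminal transferase that adds nucleotides at antigen receptor joints, read 68.1 and 47.4 FPKM at 0 h and 2.58 and 2.26 FPKM at 36 h, 23.9-fold lower in the mean (log2 change -4.08, SE 0.42, limma adjusted p = 1.29e-19). Vpreb1, part of the surrogate light chain of the pre-B cell receptor, read 11.9 and 12 FPKM and then 1.7 and 1.13 FPKM (log2 change -2.43, limma adjusted p = 1.89e-09). Rag2, of the recombinase that cuts antigen receptor genes, read 4.63 and 5.5 FPKM and then 1.23 and 0.83 FPKM (limma adjusted p = 0.00113). The libraries of each pair were close to each other here, and early and late libraries lay far apart. With Pax5 under 1 FPKM throughout and Cd79a at 1.44 and 1.65 FPKM and then 0.771 and 0.937 FPKM, markers of later B cells were at or near 0, and Ebf1, an early B cell factor, changed by -0.49 without passing. Dntt and Vpreb1 were called whichever library was left out. After the median-ratio rescaling Vpreb1 was called and Dntt was not (change -3.97, limma adjusted p = 0.132), and Rag2 was not called after it (0.23), without library 1 at 0 h (-1.48) or library 1 at 36 h (-1.44).

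Of the 15 largest falls without overlap, those left besides the small RNA genes were of Gal, S100g, Evpl and Abi3bp. Itga8 and Sptssb, the next in size, and Il1r1 of the cytokine receptors are given with them. Gal, the neuropeptide galanin, had the largest fall of any gene that is not a small RNA. It read 313 and 701 FPKM at 0 h and 18.1 and 10.4 FPKM at 36 h, 35.7-fold lower in the mean (log2 change -5.00, SE 0.56, limma adjusted p = 2.79e-16). S100g, the calcium-binding protein calbindin-D9k, read 416 and 499 FPKM and then 23.3 and 18.2 FPKM (log2 change -4.40, limma adjusted p = 6.20e-16). Evpl, envoplakin of the cornified envelope, read 19.2 and 15.5 FPKM and then 0.424 and 0.526 FPKM (log2 change -3.63, SE 0.36, limma adjusted p = 2.90e-21), the smallest p among genes that are not small RNAs. Itga8, an integrin alpha chain, fell from 22.1 and 21.8 FPKM to 0.861 and 1.01 FPKM, and Abi3bp, an extracellular matrix protein, from 30.8 and 20.2 FPKM to 0.545 and 1.47 FPKM. Sptssb, a small subunit of serine palmitoyltransferase, fell from 91.1 and 60.0 FPKM to 3.49 and 9.01 FPKM. Il1r1, the signalling receptor for interleukin 1, fell from 18.5 and 31.7 FPKM to 8.73 and 2.97 FPKM (log2 change -2.02, limma adjusted p = 1.38e-04). All 7 had late libraries clear of the early ones, and Il1r1 was not called without library 1 at 0 h (-1.65) or library 1 at 36 h (-1.38). Evpl was the 1 of the 7 still called after the median-ratio rescaling. The limma adjusted p of Gal, Abi3bp, Itga8, S100g and Sptssb were then 0.101, 0.101, 0.11, 0.153 and 0.165, and that of Il1r1 was 0.445, with the directions kept. Of the 113 falling genes, 8 were over 100 FPKM in both libraries at 0 h, and 23 were under 1 FPKM in both at 36 h.

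Of all genes 1.8% were called, and none of 29 tested neutrophil receptor and effector genes was. Of these 15 lay wholly above 0 h and 4 wholly below (14.3% and 9.47% of all genes), 10 overlapped, and the median change was 0.34. It was 0.66 without library 0 at 0 h and 0.11 without library 1 at 0 h, where the median over all tested genes was 0.31 and -0.19. Trem3, a myeloid receptor, read 29.3 and 19.3 FPKM and then 77 and 61 FPKM (log2 change 1.49, limma adjusted p = 0.267). Fcgr2b, the inhibitory IgG receptor, read 105 and 58.7 FPKM and then 210.5 and 217 FPKM (1.43), both late libraries above both early ones. Itgam, which encodes the maturation antigen CD11b, read 3.59 and 3.19 FPKM and then 9.77 and 7.18 FPKM (1.10). In the fit of the 4 HMGN1-OE libraries alone, 9 genes of this list were called higher and 1 lower, with Trem3, Fcgr2b and Itgam among the 9. Over all 11516 tested genes that fit called 243 higher and 249 lower. Of 36 tested myeloid transcription factors none was called (1.8% of all genes were). In this list 16 lay wholly above 0 h and 4 below (14.3% and 9.47% of all genes), and 16 overlapped. Cebpe, the factor that drives secondary granule genes, read 23.3 and 19.3 FPKM at 0 h and 72.5 and 58.8 FPKM at 36 h (log2 change 1.57, limma adjusted p = 0.184). It was the only factor of the list called in the fit of those 4 libraries. Gfi1, a granulocytic repressor, read 76.9 and 55.2 FPKM and then 156 and 112 FPKM, and Cebpa, the factor of granulocyte-monocyte commitment, 115 and 88.2 FPKM and then 124 and 117 FPKM. Among 23 cytokine receptors 1 rose (Il1rl1) and 2 fell (Flt3 and Il1r1), beside 0.677% and 1.12% of all genes. The receptors for interleukin 4 (Il4ra, 1.28), interleukin 6 (Il6ra, 1.30) and interferon gamma (Ifngr1, 1.20) lay wholly above 0 h without passing.

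None of the Hox genes was called at 36 h, beside 1.8% of all genes. Of 11 tested genes of the A and B clusters 9 overlapped between the times, 1 lay wholly above 0 h and 1 below (14.3% and 9.47% of all genes), and the median change was -0.20. Without library 0 at 0 h or library 0 at 36 h the median was 0.30 or 0.10, and without library 1 at either time -0.80 or -0.62. Hoxa7 read 15.9 and 3.67 FPKM at 0 h and 2.19 and 8.51 FPKM at 36 h. At each time 1 library stood several times above the other, and the high library was library 0 at 0 h and library 1 at 36 h. Hoxb8, whose reads cannot be told apart from those of the ER-HoxB8 virus, read 90.7 and 86.7 FPKM and then 178 and 96.2 FPKM.

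Genes of proliferation showed small differences. None of the 40 DNA replication genes, 44 mitosis genes, 42 nucleolar ribosome biogenesis genes, 25 genes of G1 cyclins and CDK inhibitors, or 25 genes of HMGN proteins and acetyltransferases was called, against 1.8% of all genes. The list medians were 0.17, 0.15, 0.15, 0.11 and 0.02, beside 0.06 for all tested genes. Without library 0 at 0 h they lay between 0.29 and 0.49 and without library 1 at 0 h between -0.30 and -0.12, on either side of 0 as the median of all tested genes was. The changes of the mitosis genes lay between -0.34 and 0.31, and 43 of 44 overlapped between the times. Of all genes 14.3% lay wholly above 0 h and 9.47% below, so overlap was the common case. Thymidine kinase (Tk1) read 65.4 and 43.5 FPKM and then 77.5 and 75.9 FPKM, and Aurka, a mitotic kinase, 75.2 and 46.7 FPKM and then 75.6 and 71.7 FPKM. Among the brakes of the cycle, Cdkn1a (p21) read 15.6 and 8.98 FPKM and then 25 and 26.8 FPKM, and Cdkn2c (p18) 141 and 163 FPKM and then 87.9 and 50.5 FPKM, neither past the threshold. Of 34 cholesterol synthesis genes none was called, 9 lay wholly above 0 h (14.3% of all genes did so) and none below, and the median was 0.31 (0.71 without library 0 and -0.18 without library 1 at 0 h), with Fdps at 0.68 and Mvd at 0.70. Histone genes had a median of -0.21 (0.039 without library 0 and -0.39 without library 1 at 0 h), with 10 of 28 wholly below 0 h (9.47% of all genes), 2 above and none called, for example Hist1h3c at 18.4 and 15.6 FPKM and then 9.97 and 9.3 FPKM. Of the 25 interferon-stimulated genes 1 fell (1.12% of all genes did so). It was Rtp4, a receptor-transporting protein, at 2.6 and 1.42 FPKM and then 0.28 and 0.423 FPKM (limma adjusted p = 0.027). The call was lost after the median-ratio rescaling (limma adjusted p = 0.174) and without library 0 at 0 h (-0.84), library 0 at 36 h (-1.05) or library 1 at 36 h (-1.20). No gene was called among 31 immediate early genes, 26 SOCS and JAK-STAT targets, 22 cytokines and chemokines or 29 integrated stress response genes. Nor was any among 29 glycolysis and hypoxia genes, 25 apoptosis genes or 11 erythroid and megakaryocytic genes. The same held for the 5 measured RNA quality transcripts and the 1 sex-linked gene tested. Of all genes 1.8% were called, and the medians of these lists ran from -0.23 to 0.18. The smallest adjusted p among them was that of Nupr1, a stress-induced chromatin protein, at 199 and 90.8 FPKM and then 35.9 and 45.8 FPKM (limma adjusted p = 0.0772).

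**Figure D3:**
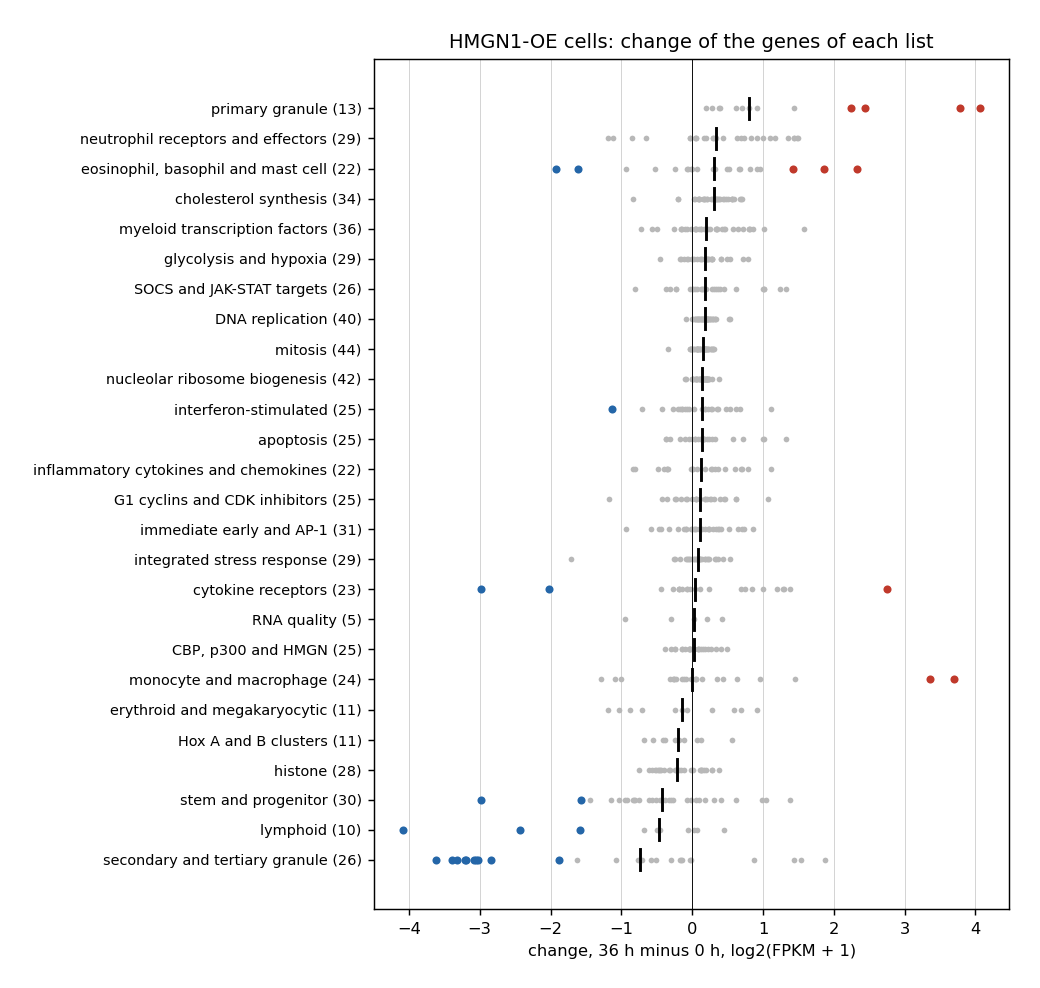
Change from 0 to 36 h in HMGN1-OE cells (log2 scale, x axis) of every tested gene of each list (number tested in parentheses, lists ordered by their median, black bar). Red and blue points are called genes, which cluster at the right of the primary granule row and the left of the secondary and tertiary granule row, while the points of the DNA replication, mitosis and G1 lists stay within 1 of 0 except for Cdkn1a and Cdkn2c.

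In wild-type cells, 71 of 11516 genes (0.617%) were called between 0 and 36 h, 41 higher and 30 lower, and the count was 214 without library 1 at 36 h and 126 without library 1 at 0 h. The wild-type change is measured on other libraries than the HMGN1-OE one, while the calls of both use the same spread pooled over 12 libraries. Of the 71 wild-type calls, 30 were not small RNA genes, and 25 of these were among the 173 genes, all in the same direction. Of the 173 genes, 159 changed in the same direction, 60 of 60 rising and 99 of 113 falling genes. Of all tested genes that are not small RNA genes, 64.9% did so. The median change over all tested genes was 0.47 in wild-type cells, so a rise is the more common direction there. Measured from that median, 56 of the 60 rising genes lay above it and 111 of the 113 falling genes below it. These counts rest on library 0 at 36 h and library 0 at 0 h. Without library 0 at 36 h, 84 of the 173 genes changed in the same direction and 6 were called, 3 of them in the same direction, and 30 of 60 and 77 of 113 lay on their side of the median. Without library 0 at 0 h, 130 changed in the same direction and 6 were called, all in it, and 45 of 60 and 88 of 113 lay on their side. Without library 1 at 36 h, 168 changed in the same direction and 73 of 74 calls were in it, and 55 and 111 lay on their side. Without library 1 at 0 h, the numbers were 157, 38 of 38, 52 and 113. The wild-type libraries at 36 h differed sharply over these genes. In library 0, 59 of 60 rising genes stood above and 109 of 113 falling genes below the wild-type mean at 0 h, with median shifts of 2.09 and -1.25. In library 1, 50 of 60 stood above but 34 of 113 below, with median shifts of 0.61 and 0.30. Set against library 0 at 0 h alone, 59 rising genes stood above and 103 falling genes below in library 0 at 36 h, and 58 and 32 in library 1. Set against library 1 at 0 h alone, the numbers were 55 and 103 in library 0 and 30 and 45 in library 1. The medians in HMGN1-OE cells were 1.86 for rising and -1.85 for falling genes. Single genes show the same split. In wild-type cells at 36 h Flt3 read 4.1 FPKM in library 0 and 67 FPKM in library 1, after 47.5 and 67.3 FPKM at 0 h. Tgm2 read 102 FPKM and 11.5 FPKM, after 2.95 and 7.36 FPKM.

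**Figure D4:**
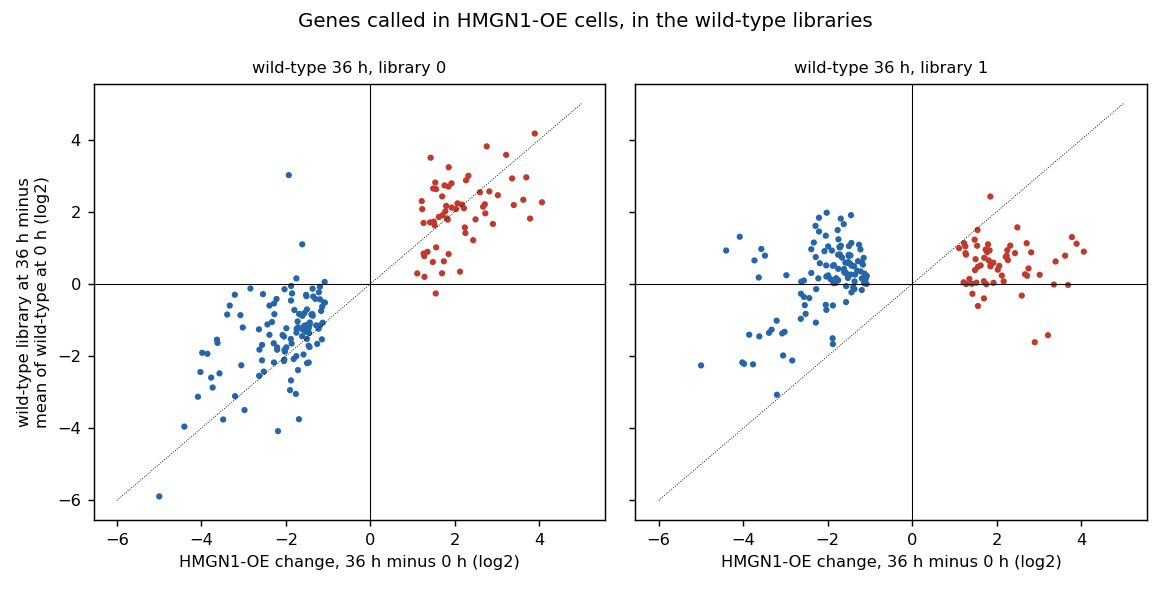
The 173 genes called in HMGN1-OE cells, with their change there on the x axis and, on the y axis, the level of a wild-type library at 36 h minus the wild-type mean at 0 h (both log2, dotted line equality). In library 0 (left) red rising and blue falling genes lie in the same quadrants as in HMGN1-OE cells, and in library 1 (right) most falling genes lie above 0.

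A test of the difference between the genotypes, the interaction of genotype and time, called 58 genes (0.504%), 17 positive and 41 negative, of which 37 were small RNA genes. Of the other 21, 19 were negative, meaning a lower change under overexpression, and 15 of the 21 were also called in HMGN1-OE cells. Negative was the common direction, since the median interaction over all tested genes was -0.41. After median centring of the libraries, quantile normalization, the median-ratio rescaling or a fit with no trend, 0 genes that are not small RNAs were called by limma, and none of the 21, Evpl included, was called with no filter or with each gene's own variance either. Over all genes, 58 calls became 2 after the median-ratio rescaling, with 206 at an unadjusted p under 0.05. Evpl fell in HMGN1-OE cells as given above and read 3.49 and 1.51 FPKM at 0 h and 0.151 and 2.8 FPKM at 36 h in wild-type cells, an interaction of -2.95 (SE 0.50, limma adjusted p = 2.17e-06). Prg2 fell in HMGN1-OE cells and read 9.88 and 2.54 FPKM and then 49.2 and 5.8 FPKM in wild-type cells (interaction -3.50, SE 0.76, limma adjusted p = 0.00125). Dntt read 15.9 and 4.6 FPKM and then 0.113 and 23.1 FPKM in wild-type cells (interaction -3.17, limma adjusted p = 2.74e-05), and S100g 71.7 and 25.6 FPKM and then 1.84 and 82.5 FPKM (interaction -2.89, limma adjusted p = 0.0101). Crisp1, a cysteine-rich secretory protein, had a negative interaction with no call in HMGN1-OE cells, at 184 and 41.8 FPKM and then 22.6 and 42 FPKM there and 37.5 and 37.9 FPKM and then 189.6 and 58.1 FPKM in wild-type cells. For Dntt, S100g, Itga8 and Abi3bp, library 0 of wild-type cells at 36 h lay below both HMGN1-OE libraries at 36 h, and library 1 lay above both wild-type libraries at 0 h. Without that library, 4 of the 21 were still called, namely Crisp1, Crisp3, Evpl and Prg2, and the interaction of Dntt was -0.95 and that of S100g -0.45. Without library 1 at 0 h, 3 were, namely Evpl, Tnfrsf9 and Vpreb2. Evpl was the only one of the 21 called whichever of the 8 libraries was left out, with the other settings as first given. At 0 h, Evpl, Dntt, S100g, Itga8 and Abi3bp had both HMGN1-OE libraries above both wild-type ones. These genes were picked by a difference that uses the same 0 h libraries, and high HMGN1-OE or low wild-type values there make it more negative. Such a gap at 0 h was thus favoured by the choice, and the share of all genes with it was not counted.

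**Figure D5:**
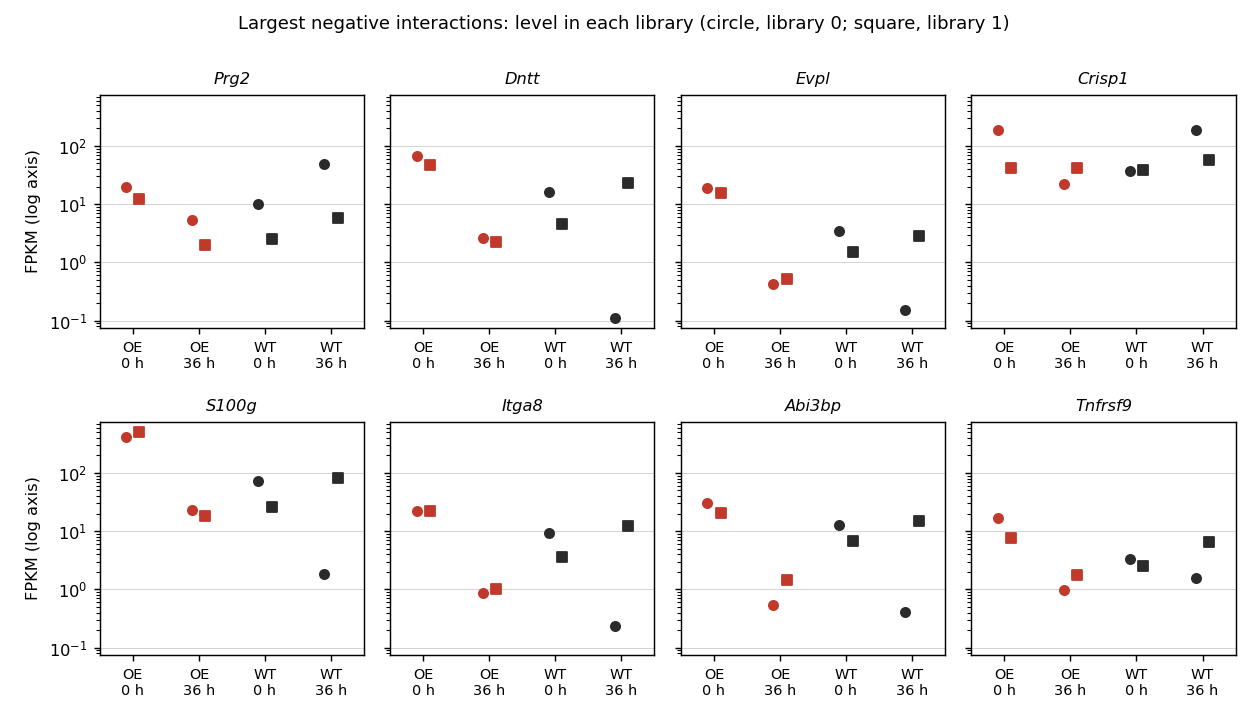
Level in FPKM (log axis) of the 8 genes with the largest negative interaction that are not small RNA genes, in HMGN1-OE (red) and wild-type (black) libraries at 0 and 36 h, with a circle for library 0 and a square for library 1. For Dntt, S100g, Itga8 and Abi3bp the square of wild-type cells at 36 h stands far above the circle, and for Evpl the HMGN1-OE libraries start highest.

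The 34 called small RNA genes were of another kind. Most switched between no signal, about 0.1 FPKM in these files, and a high value from library to library. Mir704 read 1820.1 and 2751 FPKM at 0 h and 0.112 and 1508 FPKM at 36 h, and 1 late library stayed near the early ones (log2 change -5.77, and -0.57 without library 0 at 36 h). In 12 of the 34 the libraries did not overlap. Among these, Mir378b read 142 and 75.3 FPKM and then 0.102 and 0.0979 FPKM (log2 change -6.57), Mir215 34.1 and 18.8 FPKM and then 0.0974 and 0.092 FPKM, and Snora41 32.9 and 33.7 FPKM and then 204 and 307 FPKM. Snord1b at 0.101 and 929.6 FPKM and then 0.0988 and 0.0947 FPKM (log2 change -4.87), and Mir25 at 0.114 and 615 FPKM and then 0.11 and 0.104 FPKM (-4.56), also belong to the 15 largest falls without overlap. Each had a signal in 1 early library alone, and without it the changes were -0.0058 and -0.0098. The libraries were made from polyadenylated RNA, and FPKM divides by a length of about 100 bases here, so that few reads give a large value. With these genes left out before the fit, 173 genes were called in HMGN1-OE cells, 172 of them among the 207.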

How the data were processed

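RNA of a counted number of cells, with ERCC spike-in RNAs added, was sequenced from polyadenylated libraries. The deposited values are FPKM per gene (mouse, mm9), which the authors normalized to the ERCC RNAs by a loess fit. The submitters' processing notes name HISAT and Cufflinks 2.0.0, and the study's methods name Bowtie. Read depth cannot be had from FPKM, so no counting interval is given. There were 0 unused per-sample columns.

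Genes at 1 FPKM or more in at least 2 of 12 libraries were tested with limma 3.58.1 (R 4.3.3, two-sided, mean-variance trend) on log2(FPKM + 1), which understates changes of low genes, as 6 group means, with Benjamini-Hochberg adjustment over 11516 genes and a threshold of 0.05. The prior degrees of freedom were infinite, so a gene's own spread does not enter its p. Scripts were tested on simulated data. Named genes were Hmgn1, the 15 largest called non-overlapping rises and falls, the 8 largest interactions each way, called members of each list, and from up to 4 more of large change a list and the cell type markers those used as examples. Members and lists were chosen with earlier results of these data known. Small RNA genes among the interactions are given as a count. Genes singled out beyond that rule, such as Itga8, Sptssb, Tk1, Aurka and Hist1h3c, are given as examples. Promoter windows are from RefSeq (GRCm38.p6), without chromosome 18. Figures were drawn with matplotlib 3.10.9. Alternatives were other pseudocounts, filters, scalings, variance models and sample sets. Some genes are not reported here.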

Additional observations from a re-analysis of the deposited data

Results flagged for a closer look

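The difference between the genotypes in the change from 0 to 36 h was called for 58 genes by the limma interaction test, and the 21 that are not small RNA genes are listed here with that difference on the log2 scale (change in HMGN1-OE minus change in wild-type cells, limma adjusted p under the threshold for each). Eosinophil granule genes were Prg2 (-3.50) and Epx (-2.35). Early lymphoid genes were Dntt (-3.17) and Vpreb2 (-1.83), which encodes a surrogate light chain. Hemoglobin genes were Hbb-b1 (-2.43), Beta-s (-2.18) and Hba-a1 (-1.74), which are near copies of each other in part. Cysteine-rich secretory proteins were Crisp1 (-2.94) and Crisp3 (-2.06). The other negative values were those of Evpl (-2.95), S100g (-2.89), Itga8 (-2.82), Abi3bp (-2.62), Tnfrsf9 (-2.57), which encodes the costimulatory receptor 4-1BB, Ptprg (-2.37), Car8 (-2.27), Gria2 (-2.21), Add2 (-2.09) and Gstm7 (-1.88). Gm9846 (2.88) and Gm5512 (2.47) were positive. Without library 1 of wild-type cells at 36 h 4 of the 21 were called, and without library 1 of wild-type cells at 0 h 3 were. What sets these libraries apart was not tested.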

How the results depend on the processing

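The titles number the replicates 1 and 2 and the columns end in 0 and 1 at each time, but nothing says that a shared digit marks a shared culture. Over the 4 HMGN1-OE libraries, chosen after the data were seen and as counts only, the column digit as a replicate block gave 553 calls and the crossed digit 347, against 492 without a block. Deviations of equal digits correlated at -0.29.

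Against 207 genes in HMGN1-OE cells, 71 in wild-type cells and 58 for the difference between genotypes, the calls were 21, 6 and 4 with no filter on low values, 102, 47 and 33 with a mean of at least 5 FPKM, 15, 1 and 2 after median centring, 35, 1 and 2 after quantile normalization, and 37, 1 and 2 after median-ratio scaling (chosen after the data were seen). They were 58, 4 and 2 without the trend and 2, 1 and 3 with each gene's own variance. Libraries of the compared groups alone gave 492 genes in HMGN1-OE and 41 in wild-type cells. A robust prior gave 11 in wild-type cells and 8 for the difference, and leaving out small RNA genes gave 17 and 12. The prior degrees of freedom were 2.87 after centring, 2.33 after quantile normalization, 2.38 after median-ratio scaling and 1.7 without the filter. Rises were 37.7% of the 207 calls, 60.0% after centring and 48.6% after quantile and after median-ratio scaling. Leaving out 1 library gave 103 to 154 genes in HMGN1-OE cells, 47 to 214 in wild-type cells and 28 to 162 for the difference.

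No called gene named here changed direction, and of the 173 genes that are not small RNAs 47 were called in each of the 4 fits without 1 HMGN1-OE library and 42 in none of them. Among genes that were not called, Csf1r read -0.039 after quantile normalization. With 1 library left out, the change turned direction within these ranges: Hmgn1 -0.33 to 0.70, Lcn2 -0.35 to 0.019, Ccr2 -0.47 to 0.30, Hoxa7 -1.61 to 0.24, Scd1 -1.69 to 0.030, Prss34 -0.35 to 1.34, Myb -0.0020 to 0.63, Cd68 -0.011 to 0.71, Aurka -0.030 to 0.65 and Csf1r -0.093 to 0.18. List medians turned by more than their spread over library pairs for monocyte genes (-0.040 to 0.10), cytokines (-0.15 to 0.28), interferon-stimulated genes (-0.10 to 0.36) and RNA quality (-0.28 to 0.23). In all, 20 of 26 list medians crossed 0, and those of the primary granule, secondary and tertiary granule, stem and progenitor, lymphoid, neutrophil receptor and eosinophil, basophil and mast cell lists did not. Over all tested genes the median ran from -0.19 to 0.31, so small differences rest on single libraries. Depth is unknown, and 2 libraries a group limit every value. The causes were not tested.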
